A study of Mus musculus with 24 samples.

Results

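The 8 genes described here encode Mlx, its large dimerization partners MondoA (Mlxip) and ChREBP (Mlxipl), and a group of arrestin-domain proteins, Txnip and Arrdc1 to Arrdc4. They were taken by name from the 41710 genes of each of 2 expression tables, and all 8 were found in both. Each table held 12 RNA sequencing libraries of murine embryonic fibroblasts (MEFs), with 3 libraries in each of 4 groups called WT, MlxKO, MycKO and DKO. The first table came from primary cells and the second from cells immortalized with SV40 T-antigen. Of the 8 genes, 7 passed the filter on low values in each table, and Mlxipl passed in neither.

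The MEFs came from pooled embryos of about day 14 to day 16. Both alleles of Myc, of Mlx or of both genes were floxed. A tamoxifen-dependent Cre (CreER, 2 copies) was active from the ROSA26 promoter, which is not restricted to a cell type. MlxKO, MycKO and DKO cells had the named loci excised in 500 nM 4-hydroxytamoxifen (4OHT), were kept in 250 nM 4OHT, and were without it for at least 3 days before use. WT cells had intact loci, floxed cells not exposed to 4OHT being given ethanol vehicle, and a single WT line served as the control in most of the study's experiments. Differences between lines and the genotype therefore cannot be told apart. In comparisons that include WT cells, the exposure to 4OHT cannot be told apart from them either, whereas MlxKO, MycKO and DKO cells were all exposed. RNA of primary cells was collected on day 10. Cells of the second table had been transduced with a lentivirus encoding SV40 T-antigen and selected in blasticidin. MlxKO, MycKO and DKO cells of that table were then given 4OHT for 10 days, and its WT cells were kept without 4OHT. The paper describes primary MycKO and DKO cells as growth-arrested, whereas primary MlxKO cells grew much like WT cells. All immortalized lines proliferated, and most immortalized MycKO cells were tetraploid or pseudo-tetraploid. Effects of growth state and ploidy cannot be told apart from those of the genotype in comparisons where they differ. Nothing states that the 3 libraries of a group came from separate embryo pools, so p-values measure the spread between libraries, which may be technical.

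Mlx is a small basic helix-loop-helix leucine zipper protein that binds DNA as a heterodimer. MondoA and ChREBP are kept largely in the cytoplasm and, with rising glucose phosphates, enter the nucleus with Mlx to bind carbohydrate response elements (ChoREs), which are paired E-box-like repeats. Txnip, the best known target of MondoA in many cells, binds thioredoxin and lowers glucose uptake by promoting the internalization of glucose transporters. Txnip and the Arrdc proteins form the alpha-arrestin family, adaptors that bring NEDD4-family ubiquitin ligases to membrane proteins. Arrdc4 is the closest relative of Txnip within that family and is also induced by glucose through Mlx dimers.

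The 250 bases upstream of the starts of the canonical transcripts of these genes were searched on both strands for a ChoRE pattern, the half-sites CACGNG and CNCGNG separated by 5 bases, and for the perfect E-box CACGTG, together with the first 50 bases after the start. Sequence and starts were those of GRCm39 and GENCODE vM39. Of the 8 genes, only Txnip held the ChoRE pattern, and it lay 79 to 63 bases before the start, at chr3:96465188-96465204. Arrdc4 and Mlx each held a perfect E-box, 180 and 16 bases before the start. Among 21770 promoters of the same length, 90 (0.413%) held the ChoRE pattern and 1701 (7.81%) held the perfect E-box. The other 5 genes held neither set of letters in this window. Among the promoters of 30 glucose-responsive targets of the Mlx network, described below, only 1 (Pklr) held the ChoRE pattern and 5 held the perfect E-box. Absence of these letters from this window therefore says little about a gene. The upstream stretches of Txnip (chr3:96465017-96465266, plus strand), Arrdc4 (chr7:68399000-68399249, minus strand) and Mlx (chr11:100977842-100978091, plus strand) are shown in the direction of transcription because they are the ones with a match, which stands in capitals. The ChoRE pattern of Txnip reads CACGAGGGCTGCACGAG.
Txnip: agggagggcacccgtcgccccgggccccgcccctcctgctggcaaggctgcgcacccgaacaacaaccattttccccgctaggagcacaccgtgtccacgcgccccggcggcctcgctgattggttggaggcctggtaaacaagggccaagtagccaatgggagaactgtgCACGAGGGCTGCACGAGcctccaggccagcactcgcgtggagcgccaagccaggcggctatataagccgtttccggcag
Arrdc4: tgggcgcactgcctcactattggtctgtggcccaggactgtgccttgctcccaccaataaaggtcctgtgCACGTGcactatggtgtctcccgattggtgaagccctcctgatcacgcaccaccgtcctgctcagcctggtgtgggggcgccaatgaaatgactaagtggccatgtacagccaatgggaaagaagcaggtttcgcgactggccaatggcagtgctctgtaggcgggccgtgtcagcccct
Mlx: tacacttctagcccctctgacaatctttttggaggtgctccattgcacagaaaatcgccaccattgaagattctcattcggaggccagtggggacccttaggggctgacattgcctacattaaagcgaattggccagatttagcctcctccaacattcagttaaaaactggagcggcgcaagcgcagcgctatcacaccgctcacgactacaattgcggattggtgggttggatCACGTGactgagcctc

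The libraries held between 15986856 and 20966163 reads on genes. Values are given in CPM (deposited values scaled to library size), and 3 reads, taken as the floor, corresponded to between 0.145 and 0.196 CPM, which covers counting error only. The tables were normalized separately, so levels are set side by side across them but no test crosses them. Of the 10 fibroblast markers, none was under 1 CPM throughout either table. Summed macrophage markers lay between 253 and 491 CPM in primary WT and between 273 and 340 CPM in MlxKO cells, but between 45.0 and 68.2 CPM in MycKO and between 87.8 and 213 CPM in DKO cells, and no immortalized library exceeded 5.74 CPM. One immortalized WT library, number 4, stood apart. Its correlation with the other two across genes was 0.943 and 0.950, against 0.983 to 0.996 for the other pairs of immortalized replicates, and it held 178 CPM of Myc against 48.1 and 39.9 CPM. Fold changes that rest on immortalized WT cells are therefore given with and without it where they were called or where its omission changed the call. Across bulk samples, fewer cells of a type and less RNA per cell cannot be told apart.

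In WT primary cells, Txnip was the most abundant of the 8 genes per length of exon, with 38.7 CPM per kb. Mlx followed with 11.1, Mlxip with 6.74, Arrdc4 with 4.34, Arrdc1 with 3.85, Arrdc3 with 2.24 and Arrdc2 with 1.14 CPM per kb. Mlxipl stood at 0.00815 CPM per kb. In immortalized WT cells the order began in the same way, with 17.8 CPM per kb of Txnip, 10.8 of Mlx and 7.12 of Mlxip. There Arrdc3 came next with 4.97, before Arrdc1 with 4.06 and Arrdc4 with 2.51 CPM per kb, and Arrdc2 with 1.13. Without WT library 4 the order was the same, with 21.3 CPM per kb of Txnip, 11.4 of Mlx, 6.73 of Mlxip, 5.35 of Arrdc3, 4.41 of Arrdc1, 3.04 of Arrdc4 and 1.19 of Arrdc2.

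Txnip and Arrdc4 were lower without Mlx in primary and immortalized cells, both with and without Myc, while Arrdc3 was higher without Mlx in cells that also lacked Myc. Genes were called at an adjusted p below 0.05 (limma on log2(CPM + 1), Benjamini-Hochberg over all genes tested). In primary cells, MlxKO against WT called 3 of the 7 members tested, against 8.88% of all 13101 genes tested. The comparison of DKO with MycKO, which asks for the effect of Mlx in the absence of Myc, called 4 of 7, against 21.5% of genes. MycKO against WT called 1 of 7 (background 42.3%), DKO against MlxKO 4 of 7 (49.1%) and DKO against WT 4 of 7 (49.5%). The Myc-by-Mlx interaction, the difference between the effects of Mlx loss in cells without and with Myc, called 3 of 7 (13.5%). In immortalized cells, MlxKO against WT called 4 of 7 members, against 38.9% of 12880 genes. DKO against MycKO called 4 (29.4%), MycKO against WT 2 (48.0%), DKO against MlxKO 2 (30.1%), DKO against WT 2 (18.9%) and the interaction 3 (47.4%). Without WT library 4, the numbers were 4 in MlxKO against WT (46.8%), 4 in DKO against MycKO (40.9%), 3 in MycKO against WT (54.0%), 4 in DKO against MlxKO (43.2%), 3 in DKO against WT (2840 of 12880 genes) and 3 in the interaction (56.7%). The background itself moved with single libraries. In primary MlxKO against WT it was 4.79% without WT library 1, 4.81% without WT library 2, 5.63% without MlxKO library 6 and 15.4% without MycKO library 10. In immortalized MlxKO against WT it was 22.4% and 24.7% without MlxKO libraries 6 and 7. For DKO against WT it was 8.66%, 11.7% and 10.9% without DKO libraries 13, 14 and 15. For DKO against MlxKO it was 18.3% and 18.6% without MlxKO libraries 6 and 7, and 18.5% and 19.7% without DKO libraries 14 and 15. The libraries of the 2 groups did not overlap for 3 members in primary MlxKO against WT, where this held for 28.3% of all genes, for 5 in DKO against MycKO (36.9%), for 2 in MycKO against WT (48.1%), for 5 in DKO against MlxKO (60.9%) and for 5 in DKO against WT (60.8%). In immortalized cells the numbers were 4 (49.1%), 5 (49.7%), 2 (51.1%), 5 (54.4%) and 6 (37.1%) for the same comparisons in that order. Several of these shares are close to the background, so it is the individual genes, rather than the number called, that are described below. Comparisons that have a group in common share its libraries and are not independent of each other.

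**Figure D1:**
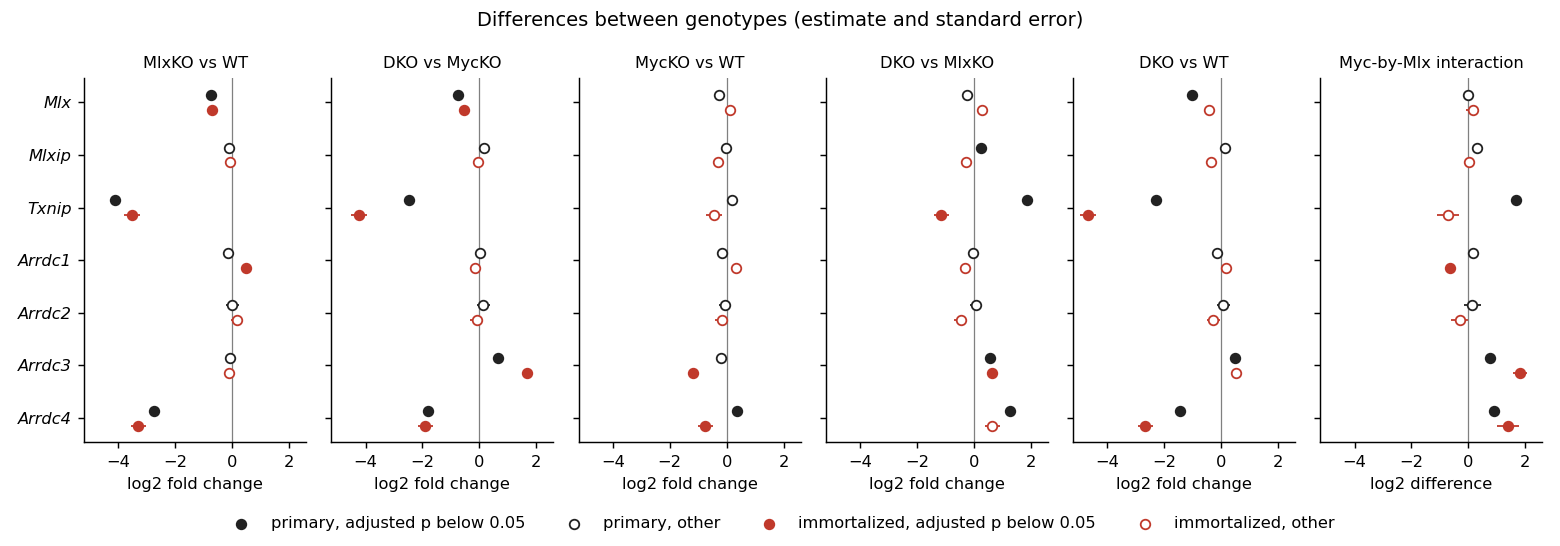
Differences between genotypes for the 7 genes tested, as log2 fold changes on the log2(CPM + 1) scale (first group minus second) with standard errors, and for the interaction as a difference of 2 such changes. Black marks primary and red immortalized MEFs, and filled points have an adjusted p below 0.05. Txnip lies between -4.68 and -2.28 and Arrdc4 between -3.30 and -1.45 in the comparisons of MlxKO with WT, DKO with MycKO and DKO with WT.

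Mlx (ENSMUSG00000017801, chr11:100978080-100983043, plus strand) fell when it was targeted, but its reads did not vanish. Primary WT libraries held 26.0, 20.5 and 24.5 CPM and MlxKO libraries 13.0, 13.5 and 13.97 CPM. MycKO libraries held 21.1, 17.3 and 20.5 CPM and DKO libraries 11.8, 12.0 and 9.73 CPM. The groups with and without a targeted Mlx locus did not overlap. The log2 fold change was -0.76 (SE 0.112) in MlxKO against WT (adjusted p = 0.000405, limma) and likewise -0.76 in DKO against MycKO (adjusted p = 9.76e-05, limma), which left 56.9% of the level in each case. The excision removes exons 3 to 7, which hold 599 of the 1847 bases of the canonical transcript, so that 1248 bases, or 67.6%, can still be counted. Exon 8 alone spans 1109 bases and overlaps Psmc3ip on the opposite strand, and it is not stated whether the counting used strand. Psmc3ip itself lay between 2.11 and 5.87 CPM in primary and between 6.21 and 12.5 CPM in immortalized libraries, and it is named here after its values were seen. Reads of the retained exons count toward Mlx whether or not an allele was excised. From DNA assays and immunoblots, the paper reports excision of nearly all alleles of each targeted gene, with a comparable loss of protein.

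Immortalized WT libraries held 25.1, 23.5 and 20.5 CPM of Mlx and MlxKO libraries 17.0, 12.4 and 12.1 CPM. MycKO libraries held 27.8, 25.1 and 22.4 CPM and DKO libraries 14.5, 18.0 and 17.7 CPM. These groups did not overlap either. The log2 fold change was -0.71 in MlxKO against WT (adjusted p = 0.00471, limma) and -0.56 in DKO against MycKO (adjusted p = 0.0183, limma). The first was -0.78 without WT library 4 (adjusted p = 0.00156, limma). The second was no longer called without MycKO library 9 (-0.48, adjusted p = 0.0619), MycKO library 10 (-0.55, adjusted p = 0.0507) or DKO library 13 (-0.46, adjusted p = 0.0711). In DKO against WT cells, Mlx fell in primary cells by 1.02 on the log2 scale (adjusted p = 1.48e-06), while in immortalized cells the value was -0.44 (adjusted p = 0.0694). Without WT library 4 the latter was -0.52 (adjusted p = 0.0340), and without MlxKO library 5 it was -0.44 with an adjusted p of 0.0484. Loss of Myc alone gave -0.26 in primary (adjusted p = 0.0754) and 0.12 in immortalized cells (adjusted p = 0.561), or 0.04 without WT library 4 (adjusted p = 0.850). The value in primary cells passed the threshold without WT library 2 (-0.35, adjusted p = 0.0284) and with scaling by library totals (-0.36, adjusted p = 0.0154). DKO against MlxKO of primary cells gave -0.25 (adjusted p = 0.0697), which passed without MycKO library 10 (-0.25, adjusted p = 0.0434) and with scaling by library totals (-0.36, adjusted p = 0.0125).

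Myc itself, the other targeted gene, stood at 93.9 ± 5.46 CPM in primary WT and 87.5 ± 1.99 in MlxKO cells (SD, n = 3 as for all group means here). It was at 26.5 ± 0.563 in MycKO and 21.4 ± 1.47 CPM in DKO cells. In immortalized cells it was at 12.7 ± 3.90 CPM in MycKO and 6.01 ± 1.90 in DKO against 78.2 ± 5.33 in MlxKO cells. Both targeted genes were thus lower in the libraries so labelled. According to the paper, the floxed stretch of Myc leaves out its first exon, so reads of that exon can still be counted.

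The partners of Mlx changed little. Mlxip (ENSMUSG00000038342, chr5:123532794-123595995, plus strand), which encodes MondoA, lay between 60.6 and 64.2 CPM in primary WT, between 49.7 and 63.0 CPM in MlxKO and between 59.1 and 64.3 CPM in MycKO libraries, and between 68.0 and 70.1 CPM in DKO libraries. The DKO libraries were above the 9 others. Mlxip was called only in DKO against MlxKO of primary cells, with a log2 fold change of 0.26 (SE 0.0793, adjusted p = 0.0129, limma), and that call was lost without MlxKO library 7 (0.16, adjusted p = 0.0724) and with scaling by library totals (0.15, adjusted p = 0.125). The interaction of 0.30 (adjusted p = 0.0965) passed the threshold without MlxKO library 5 (0.36, adjusted p = 0.0448) or without MycKO library 10 (0.33, adjusted p = 0.0439). In immortalized cells Mlxip lay between 60.3 and 73.7 CPM in WT, between 59.0 and 66.4 CPM in MlxKO, between 44.1 and 62.0 CPM in MycKO and between 44.1 and 57.9 CPM in DKO libraries. There limma called it in 0 of the 6 comparisons, as did edgeR and DESeq2, with 2 at an unadjusted p below 0.05. The largest difference, between DKO and WT, was -0.36 (adjusted p = 0.0898), or -0.29 without WT library 4 (adjusted p = 0.175), and MycKO against WT reached the threshold only without MycKO library 10 (-0.43, adjusted p = 0.0364).

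Mlxipl (ENSMUSG00000005373, chr5:135118744-135168615, plus strand), which encodes ChREBP, the partner most abundant in liver and fat, was near the detection limit. Summed over 3 libraries, primary WT cells held 3 reads, MlxKO cells 5, MycKO cells 0 and DKO cells 9. The immortalized groups held 11, 3, 0 and 6 reads in the same order. No library exceeded 0.388 CPM, and the 6 MycKO libraries, at 0 reads each, allow levels of up to the floor given above. No fold change is given for this gene.

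Txnip (ENSMUSG00000038393, chr3:96465267-96469201, plus strand) had the largest fall of all 13101 genes in primary MlxKO cells. WT libraries held 122, 116 and 129 CPM. In MlxKO libraries the values were 6.88, 6.40 and 5.03 CPM. MycKO libraries held 132, 146 and 140 CPM, and DKO libraries 23.7, 26.1 and 23.6 CPM. Each pair of groups was separate, with DKO between MlxKO and WT, and MycKO highest. Loss of Mlx thus left 4.98% of the level where Myc was present (log2 fold change -4.13, SE 0.0923, adjusted p = 2.58e-14, limma) and 17.6% where it was absent (-2.46, adjusted p = 1.43e-11, limma). Compared with MlxKO cells, DKO cells held 4.01 times as much Txnip (log2 fold change 1.85, adjusted p = 2.80e-10, limma). The interaction of 1.66 was also past the threshold (SE 0.131, adjusted p = 3.21e-07, limma). Loss of Myc alone gave 0.19 (adjusted p = 0.119), a value that passed the threshold with DESeq2 (0.19, adjusted p = 0.0355) and without MlxKO library 7 (0.19, adjusted p = 0.0477). Macrophage markers, given above, were also lower in both groups without Myc. Summed skeletal muscle markers lay between 123 and 138 CPM in primary WT, between 64.9 and 70.7 CPM in MlxKO, between 79.2 and 80.8 CPM in MycKO and between 119 and 130 CPM in DKO libraries, with Myod1, Myog and Ckm under 1 CPM throughout. Summed epithelial markers lay between 16.5 and 19.9 CPM in WT and did not exceed 4.78 CPM in the other groups, with Epcam, Cdh1 and Krt14 under 1 CPM throughout. The part of these markers in the differences of Txnip and Arrdc4 was not tested.

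In immortalized cells, Txnip was lowest in DKO rather than in MlxKO cells. WT libraries held 60.7, 74.3 and 33.8 CPM, the last being library 4, and MlxKO libraries 4.40, 2.55 and 4.54 CPM. MycKO libraries held 37.2, 41.4 and 38.4 CPM. DKO libraries, with 0.682, 1.30 and 1.49 CPM, rested on 12, 23 and 27 reads. Only WT and MycKO libraries overlapped. Loss of Mlx left 6.81% of the level in the presence of Myc (log2 fold change -3.52, SE 0.269, adjusted p = 9.07e-06, limma) and 2.97% in its absence (-4.23, adjusted p = 3.50e-07, limma). The first of these was -3.85 without WT library 4 (adjusted p = 1.32e-08). DKO cells held 30.2% of the Txnip of MlxKO cells (-1.15, adjusted p = 0.00737), the direction opposite to that in primary cells. The interaction was -0.71 (SE 0.381, adjusted p = 0.143) on this scale, which understates changes of low genes, and -0.38 without WT library 4 (adjusted p = 0.260). On recovered reads it was -1.21 with both edgeR (adjusted p = 0.0460) and DESeq2 (adjusted p = 0.0190), and with a pseudocount of 0.1 likewise -1.21 (adjusted p = 0.0499). MycKO against WT gave -0.45 (adjusted p = 0.188), but -0.77 without WT library 4 (adjusted p = 0.00718), so this call depends on that library.

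Against WT, DKO cells held 20.0% of the Txnip level in primary cells (log2 fold change -2.28, adjusted p = 2.44e-11, limma). In immortalized cells they held 2.06% (-4.68, adjusted p = 9.02e-07, limma). The latter was the lowest log2 fold change of all 12880 genes, and it was -5.00 without WT library 4 (adjusted p = 5.09e-09). About 29.3% of the exon bases of Txnip are overlapped by Gm15441, an antisense transcript. Gm15441, named after its values were seen, did not exceed 0.508 CPM in primary or 0.333 CPM in immortalized libraries.

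Arrdc4 (ENSMUSG00000042659, chr7:68386742-68398999, minus strand) followed Txnip in direction in primary cells. WT libraries held 18.3, 19.3 and 21.5 CPM and MlxKO libraries 1.76, 1.97 and 2.72 CPM. MycKO libraries held 23.5, 28.4 and 25.6 CPM and DKO libraries 7.87, 5.70 and 6.28 CPM. The order of the groups was that of Txnip, again without overlap. Loss of Mlx left 10.9% in the presence of Myc (log2 fold change -2.73, SE 0.136, adjusted p = 2.22e-09, limma) and 25.6% in its absence (-1.82, adjusted p = 5.86e-08, limma). The former was the third lowest log2 fold change of the table. DKO cells held 3.08 times as much as MlxKO cells (1.27, adjusted p = 1.10e-06) and 33.5% of the WT level (-1.45, adjusted p = 2.49e-07), and the interaction was 0.90 (SE 0.192, adjusted p = 0.00384). In MycKO against WT cells Arrdc4 was the only member called, at 0.37 (adjusted p = 0.0367), with no overlap between libraries. That call was lost when WT library 1 (0.32, adjusted p = 0.120), WT library 2 (0.36, adjusted p = 0.0891), MycKO library 10 (0.30, adjusted p = 0.102) or MycKO library 11 (0.38, adjusted p = 0.0762) was omitted. It was also lost with a pseudocount of 0.1 (0.39, adjusted p = 0.0624), without the filter (0.37, adjusted p = 0.0834) and with scaling by library totals (0.27, adjusted p = 0.114).

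In immortalized cells, Arrdc4 was close to the detection limit without Mlx. WT libraries held 15.3, 12.3 and 6.51 CPM. MlxKO libraries held 0.194, 0.350 and 0.0510 CPM, which is 4, 7 and 1 reads. MycKO libraries held 7.72, 5.71 and 4.78 CPM and DKO libraries 0.739, 0.735 and 1.10 CPM. Here too the libraries of WT and MycKO overlapped, and other pairs of groups did not. The log2 fold change was -3.30 in MlxKO against WT (SE 0.262, adjusted p = 1.02e-05), or -3.63 without WT library 4 (adjusted p = 1.50e-08). It was -1.91 in DKO against MycKO (adjusted p = 0.000163) and -2.67 in DKO against WT (adjusted p = 4.71e-05), the latter being -2.99 without WT library 4 (adjusted p = 3.13e-07). The interaction was 1.39 (adjusted p = 0.00872), or 1.72 without that library (adjusted p = 0.000124). The log2(CPM + 1) scale understates these differences, since MlxKO cells held 1.74% of the mean of WT, DKO cells 14.2% of the mean of MycKO and 7.55% of that of WT. On recovered reads, MlxKO against WT was -5.77 with edgeR (adjusted p = 2.75e-05) and -5.83 with DESeq2 (adjusted p = 1.78e-23), and DKO against MycKO was -2.81 (adjusted p = 0.000314) and -2.83 (adjusted p = 4.66e-10). DKO against WT was -3.70 (adjusted p = 0.000174) and -3.73 (adjusted p = 1.14e-16), and the interaction was 2.96 (adjusted p = 0.00333) and 3.01 (adjusted p = 8.05e-05).

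Between immortalized DKO and MlxKO cells, Txnip and Arrdc4 had differences of opposite sign. While Txnip fell there, the means of Arrdc4 were 0.860 CPM in DKO and 0.198 CPM in MlxKO cells, without overlap. This difference was 0.64 (adjusted p = 0.0847) in the fit of log2(CPM + 1), and 0.64 with an adjusted p of 0.0116 without WT library 4. On recovered reads it was called by edgeR (2.07, adjusted p = 0.0154) and DESeq2 (2.11, adjusted p = 0.00211), from 46 reads in DKO and 12 reads in MlxKO libraries. MycKO against WT gave -0.76 (adjusted p = 0.0310), which became -1.08 without WT library 4 (adjusted p = 0.000508). It was not called by edgeR (-0.89, adjusted p = 0.0539), with a pseudocount of 0.1 (-0.84, adjusted p = 0.119), without the filter (-0.76, adjusted p = 0.0608) or in a fit of these 2 groups alone (-0.76, adjusted p = 0.0992), nor without WT library 2 (-0.52, adjusted p = 0.134), WT library 3 (-0.67, adjusted p = 0.0845), MycKO library 10 (-0.73, adjusted p = 0.0772) or MycKO library 11 (-0.62, adjusted p = 0.111).

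**Figure D2:**
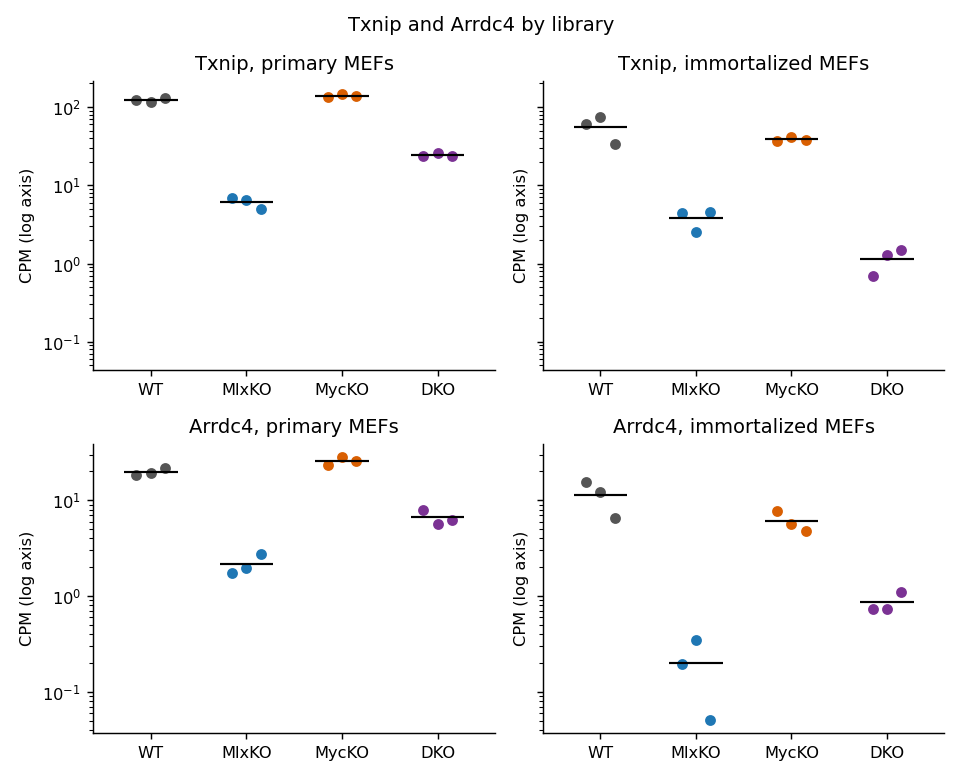
Txnip and Arrdc4 in each library, in CPM on a log axis, with 4 groups of 3 libraries in primary (left) and immortalized (right) MEFs. Points are libraries and lines are group means. In primary cells DKO libraries lie above MlxKO libraries for both genes, while in immortalized cells they lie below them for Txnip and above them for Arrdc4.

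Across libraries, Arrdc4 was the gene most like Txnip, and Txnip the gene most like Arrdc4, among 12401 genes tested in both tables. Pearson's r of log2(CPM + 1) was 0.99 over the 12 primary and 0.91 over the 12 immortalized libraries. Genes were ranked by the lower of these 2 values. The next for Txnip were Samd5 (0.85 and 0.93) and Sox11 (0.91 and 0.82), and the next for Arrdc4 were Samd5 (0.79 and 0.92) and Rab3ip (0.86 and 0.77). Samd5 stood at 16.2 ± 1.81 CPM in primary MlxKO against 27.4 ± 1.67 in WT, 24.01 ± 0.671 in MycKO and 24.04 ± 0.828 CPM in DKO cells. In immortalized cells it was at 4.16 ± 1.16 in MlxKO and 4.39 ± 0.606 in DKO against 14.9 ± 1.03 in WT and 15.6 ± 1.94 CPM in MycKO cells. Mlx was most like Ywhaq (0.87 and 0.82), 2810408I11Rik (0.90 and 0.78) and Txnip (0.76 and 0.81), with Arrdc4 at rank 6 (0.74 and 0.88). The points are libraries of 4 groups, so these values largely carry the differences between groups and are descriptions only.

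**Figure D3:**
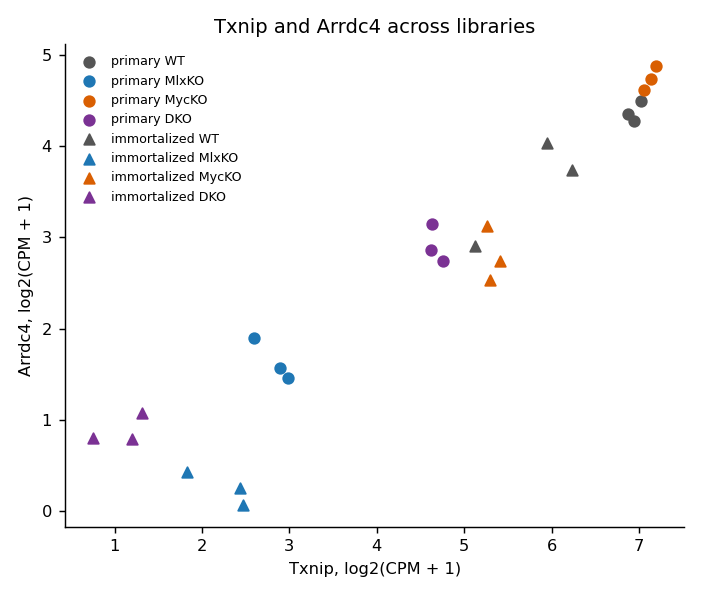
Txnip (x axis) against Arrdc4 (y axis), both as log2(CPM + 1), in 12 primary (circles) and 12 immortalized (triangles) libraries coloured by genotype. The tables were normalized separately. Libraries with Mlx lie at the upper right, and the immortalized MlxKO and DKO libraries at the lower left, where MlxKO has more Txnip and DKO more Arrdc4.

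Arrdc3 (ENSMUSG00000074794, chr13:81031409-81044161, plus strand), an alpha-arrestin known for the turnover of integrin beta4, rose in DKO against MycKO cells, where Txnip fell. Primary WT libraries held 19.3, 17.4 and 20.6 CPM, MlxKO libraries 17.0, 21.5 and 15.7 CPM and MycKO libraries 16.6, 19.6 and 14.2 CPM. DKO libraries held 25.9, 26.9 and 27.9 CPM and were above the 9 others, which overlapped. The log2 fold change in MlxKO against WT was -0.09 (SE 0.123, adjusted p = 0.721), whereas DKO against MycKO gave 0.66 (SE 0.123, adjusted p = 0.000883, limma). The interaction, which tests the difference between these 2 values, was 0.75 (adjusted p = 0.00727). DKO cells were also above MlxKO cells (0.56, adjusted p = 0.00128) and above WT cells (0.47, adjusted p = 0.00427). Loss of Myc alone gave -0.19 (adjusted p = 0.235), or -0.30 without MycKO library 10 (adjusted p = 0.0476).

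In immortalized cells Arrdc3 differed over a wider range. WT libraries held 46.1, 45.4 and 36.0 CPM of Arrdc3 and MlxKO libraries 52.2, 31.5 and 35.9 CPM. MycKO libraries held 17.7, 17.7 and 19.3 CPM, the lowest of the table, and DKO libraries 53.0, 66.9 and 62.7 CPM, the highest. Arrdc3 fell upon loss of Myc alone (log2 fold change -1.17, SE 0.173, adjusted p = 0.000210), also without WT library 4 (-1.28, adjusted p = 3.22e-05). It was 3.34 times as high in DKO as in MycKO cells (1.68, adjusted p = 1.68e-05) but differed by -0.12 between MlxKO and WT cells (adjusted p = 0.617), or -0.23 without WT library 4 (adjusted p = 0.298). The interaction was 1.80 (SE 0.245, adjusted p = 0.000149), or 1.91 without WT library 4 (adjusted p = 1.22e-05). DKO against MlxKO gave 0.63 (adjusted p = 0.0174) and was not called without MlxKO library 6 (0.48, adjusted p = 0.0868), MlxKO library 7 (0.57, adjusted p = 0.0713), DKO library 14 (0.56, adjusted p = 0.0763) or DKO library 15 (0.60, adjusted p = 0.0600). DKO against WT gave 0.51 (adjusted p = 0.0580), 0.40 without WT library 4 (adjusted p = 0.116), and was called without MlxKO library 5 (0.51, adjusted p = 0.0243) and by DESeq2 (0.52, adjusted p = 0.0363).

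Summed neural markers were, like Arrdc3, lowest in MycKO and highest in DKO libraries of immortalized cells. The range was 96.7 to 202 CPM in WT and 72.8 to 73.9 CPM in MlxKO libraries. It was 39.4 to 55.2 CPM in MycKO and 213 to 228 CPM in DKO libraries, while Sox10 and Gfap were under 1 CPM in all 12 libraries. The sums were thus lower in MlxKO than in WT libraries, although the Arrdc3 levels of those groups overlapped. In primary cells the neural sums were highest in MycKO libraries, where mean Arrdc3 was lowest. They lay there between 94.7 and 109 CPM, against 60.3 to 78.2 CPM in the other groups. Summed fibroblast markers were between 25580 and 33710 CPM in WT and between 18480 and 22710 CPM in MlxKO libraries, and between 18010 and 24220 CPM in MycKO and between 26720 and 34570 CPM in DKO libraries. Summed skeletal muscle markers lay between 13.2 and 22.8 CPM in WT, 9.49 and 10.4 CPM in MlxKO, 191 and 231 CPM in MycKO and 85.6 and 91.2 CPM in DKO libraries. Of these 5 markers, 4 (Myod1, Myog, Des and Ckm) were under 1 CPM throughout, so the sum is nearly all Acta1. The part of these markers in the differences of Arrdc3 was not tested. The genes most like Arrdc3 across libraries were Abi3bp (r of 0.88 and 0.95), Srgap3 (0.88 and 0.88) and Plod2 (0.91 and 0.87). Abi3bp stood at 34.2 ± 2.87 CPM in primary MycKO and 117 ± 4.59 in primary DKO cells, and at 40.8 ± 5.15 and 549.9 ± 26.1 CPM in the same groups of immortalized cells.

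Arrdc1 was called in immortalized cells only, and Arrdc2 in neither table. Arrdc1 (ENSMUSG00000026972, chr2:24815286-24825338, minus strand), an adaptor at the plasma membrane known for the release of microvesicles, lay between 7.83 and 10.9 CPM in all primary libraries, with overlap of all groups, and limma, edgeR and DESeq2 called it in 0 of the 6 comparisons, with 0 at an unadjusted p below 0.05. In immortalized cells it was at 11.9, 11.8 and 9.01 CPM in WT libraries and 13.7, 17.2 and 15.9 CPM in MlxKO libraries. It was at 13.1, 13.7 and 14.6 CPM in MycKO and 13.0, 12.2 and 12.0 CPM in DKO libraries. The libraries did not overlap in any of the 5 comparisons of 2 groups, which held for between 37.1% and 54.4% of all genes in each. Only MlxKO against WT was called among these 5. The nearest libraries of DKO and MycKO stood at 13.02 and 13.09 CPM (adjusted p = 0.475, limma). The difference between MlxKO and WT, a ratio of 1.43, was 0.49 (SE 0.140, adjusted p = 0.0174, limma). It was 0.37 without WT library 4 (adjusted p = 0.0343), and was not called without MlxKO library 6 (0.42, adjusted p = 0.0813) or MlxKO library 7 (0.47, adjusted p = 0.0615), or in a fit of these 2 groups alone (0.49, adjusted p = 0.0707). The interaction was -0.63 (adjusted p = 0.0207), or -0.51 without WT library 4 (adjusted p = 0.0238), and was not called without MlxKO library 6 (-0.56, adjusted p = 0.0590), MlxKO library 7 (-0.61, adjusted p = 0.0501) or MycKO library 11 (-0.59, adjusted p = 0.0512). DKO against MlxKO was -0.30 (adjusted p = 0.119) and passed the threshold without WT library 4 (-0.30, adjusted p = 0.0494).

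Arrdc2 (ENSMUSG00000002910, chr8:71287770-71292364, minus strand) was the least abundant of the 7 genes tested in WT cells. It lay between 2.43 and 6.28 CPM in primary and between 2.15 and 4.75 CPM in immortalized libraries, and 0 of the 12 comparisons called it with limma, edgeR or DESeq2, with 0 at an unadjusted p below 0.05 in limma. Its standard error in primary cells, 0.213 on the log2 scale, was larger than each difference between 2 groups measured there. In immortalized cells the value farthest from 0 was -0.46 in DKO against MlxKO (SE 0.224, adjusted p = 0.143).

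**Figure D4:**
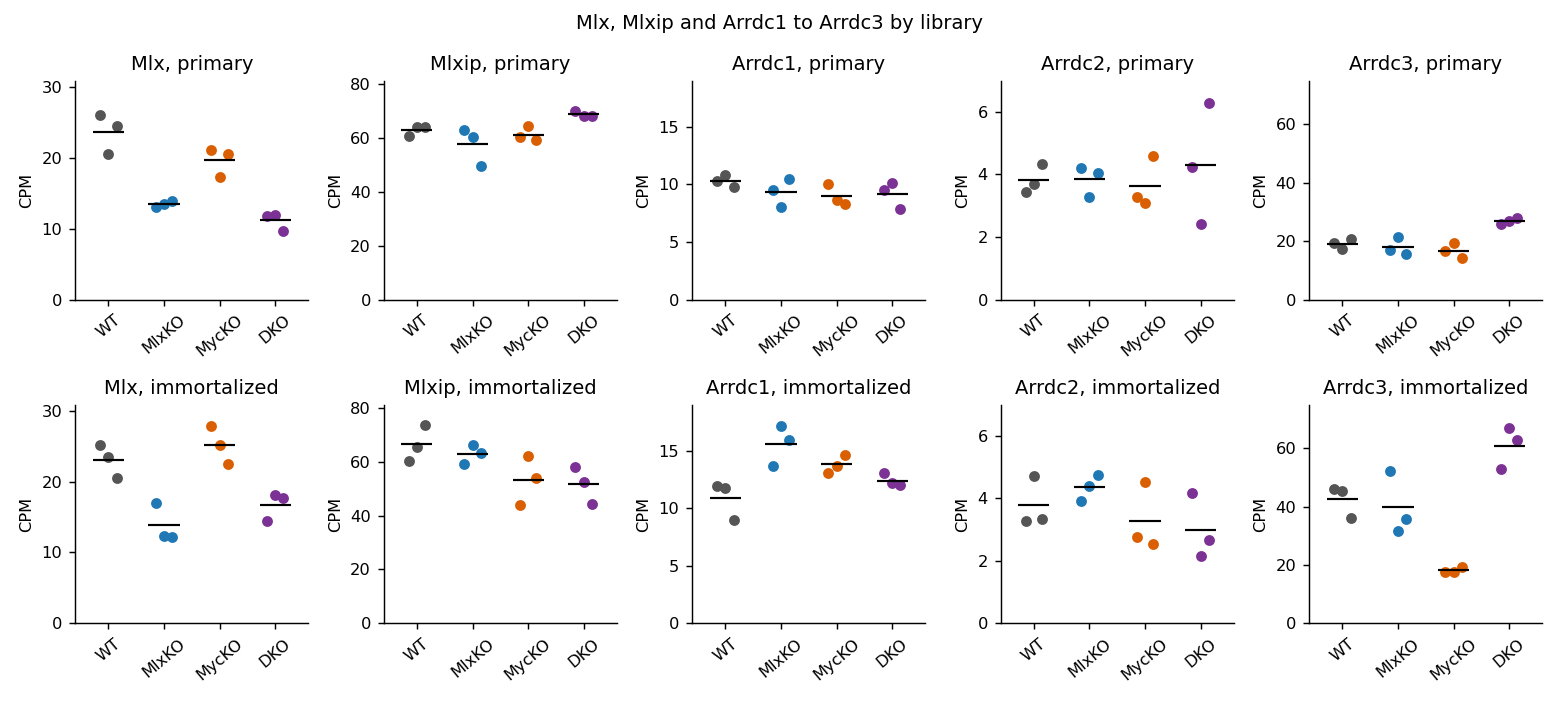
Mlx, Mlxip, Arrdc1, Arrdc2 and Arrdc3 in each library, in CPM from 0, with primary MEFs above and immortalized MEFs below. Points are libraries (3 per group) and lines are group means. Within each table, mean Arrdc3 is highest in DKO cells (26.9 and 60.9 CPM) and lowest in MycKO cells (16.8 and 18.2 CPM).

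Other targets of the network were called in both directions after loss of Mlx. Of 30 glucose-responsive targets of the Mlx network, 20 were tested in each table. In primary MlxKO cells 4 were called (background 8.88%), of which 3 fell and 1 rose, with a median log2 fold change of 0.00, the same as over all genes. Those that fell were Klf10, a Krüppel-like repressor (-0.56, adjusted p = 0.00184), Rgs16, a regulator of G-protein signalling (-0.55, adjusted p = 0.00217), and Ldha, of lactate production (-0.30, adjusted p = 0.0161), and Lpin1 rose (0.42, adjusted p = 0.0470, limma). In primary DKO against MycKO cells 7 were called (background 21.5%), of which 4 fell and 3 rose, with a median of -0.14. The largest falls were those of Klf10 (-0.67), Mid1ip1 (-0.39) and Bhlhe40 (-0.29), and the rises those of Pfkfb3 (0.60) and Hk2 (0.57), both of glycolysis, and of Ldha (0.36), which had fallen in MlxKO cells. In immortalized MlxKO cells Elovl6 (-0.63), Scd1 (-0.54) and Me1 (-0.53), all of fatty acid synthesis, fell and Mid1ip1 (0.43) rose, with a median of 0.04 over the 20 genes. These 4 of 20 are a smaller share than the 38.9% of all genes called. Without WT library 4, 9 were called (background 46.8%), and the 4 named had values of -0.44, -0.73, -0.59 and 0.35. Of the 4 genes called in primary MlxKO cells, 3 were then called with the opposite sign (limma). These were Lpin1 (-0.99, adjusted p = 0.000177), Ldha (0.45, adjusted p = 0.00768) and Rgs16 (0.41, adjusted p = 0.0425). Klf10 (0.14, adjusted p = 0.308) was not called. With scaling by library totals, 7 of the 20 were called. In immortalized DKO against MycKO cells 7 were called (background 29.4%), of which 4 fell and 3 rose, with a median of 0.02. The number was 11 without WT library 4 (background 40.9%) and 4 with a mean of at least 5 CPM. Rgs16 fell farthest (-3.15, adjusted p = 1.81e-07, limma), from 14.8 ± 0.449 CPM in MycKO to 0.786 ± 0.144 CPM in DKO cells, but WT and MlxKO cells held only 0.495 ± 0.415 and 0.665 ± 0.0851 CPM. In primary MlxKO against WT cells the number called was 2 without the filter and without WT library 2, MlxKO library 5 or MlxKO library 6, and 8 without MycKO library 10.

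Of the dimer partners Mnt, Mxd1 and Mxd4, Mxd4 rose in primary MlxKO cells (0.25, adjusted p = 0.0225) and in immortalized DKO against MycKO cells (0.76, adjusted p = 0.00924), and the other 2 comparisons of this kind called 0 of 3 with limma, edgeR or DESeq2 (1 and 0 at an unadjusted p below 0.05 in limma). The first call was lost without WT library 2, WT library 3, MlxKO library 5 or MlxKO library 6, when the number called was 0, and the second number was 2 without WT library 4. Among 7 thioredoxin partners and Txnip-related genes, Txnrd1 fell in primary MlxKO (-0.23), primary DKO against MycKO (-0.26) and immortalized MlxKO cells (-0.35, or -0.24 with an adjusted p of 0.0732 without WT library 4). In immortalized DKO against MycKO cells the difference was 0.21 (adjusted p = 0.196). Txn1, which encodes thioredoxin, fell in primary MlxKO cells (-0.34, adjusted p = 0.0491). Of the 7 genes of this list tested there, 2 were called (background 8.88%). The number was 0 without WT library 1, WT library 2 or MlxKO library 7, and 1 without MlxKO library 5 or 6, MycKO library 9 or DKO library 13, 14 or 15. It was also 1 with a pseudocount of 0.1, without the filter and with scaling by library totals. Slc2a1, which encodes a glucose transporter internalized with the help of Txnip, rose in primary DKO against MycKO cells (0.64, adjusted p = 8.73e-07). In primary MlxKO cells Slc2a1 held 99.8% of the WT level. In immortalized cells it held 100.2% of the WT level in MlxKO and 98.0% of the MycKO level in DKO cells. None of these differences was called. These are RNA values and do not measure internalization of the transporter. On immunoblots of primary cells, the paper reports more of the encoded protein, Glut1, in MlxKO and DKO cells. Ddit4 rose in immortalized MlxKO cells (1.13, adjusted p = 0.00150, or 1.32 without WT library 4) and fell in immortalized DKO against MycKO cells (-0.83, adjusted p = 0.00782). In immortalized cells 6 genes of this list were tested, and 2 were called in MlxKO against WT (background 38.9%). These 2 calls became 1 without WT library 2 or MlxKO library 5, 6 or 7, and in a fit of the groups compared alone. In DKO against MycKO, 2 of 7 were called in primary (background 21.5%) and 1 of 6 in immortalized cells (background 29.4%).

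Of 9 NEDD4-family ligases, 8 were tested. In primary MlxKO cells 0 were called with limma, edgeR or DESeq2 (4 at an unadjusted p below 0.05 in limma, and 1 called without MycKO library 10), and in DKO against MycKO cells 5 were called (background 21.5%), of which 4 fell and 1 rose, led by Hecw2 (-0.76) and Nedd4l (-0.70), with Smurf2 (0.30) the one that rose. In immortalized MlxKO cells 5 were called (background 38.9%), of which 4 fell and 1 rose, led by Wwp1 (-0.78), Nedd4 (-0.63) and Itch (-0.60), with Smurf1 (0.44) the one that rose. Without WT library 4 these 4 values were -0.76, -0.60, -0.50 and 0.62. The number of 5 became 3 without WT library 2, MlxKO library 6 or 7, MycKO library 11 or DKO library 13 or 15, and also without the filter and in a fit of the groups compared alone. In immortalized DKO against MycKO cells 4 were called (background 29.4%), of which 2 rose, among them Wwp1 (0.63), and 2 fell, among them Nedd4l (-1.33).

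All 9 cargo and vesicle partners of alpha-arrestins were tested. In primary MlxKO cells 0 were called with limma, edgeR or DESeq2, with 1 at an unadjusted p below 0.05, and 1 was called without MycKO library 10 or 11 and with scaling by library totals. In DKO against MycKO cells Notch1, a cell surface receptor, fell in primary (-0.71, adjusted p = 0.000594, limma) and in immortalized cells (-1.07, adjusted p = 0.000719, limma). Slc11a2, a metal transporter, fell in the latter (-0.40, adjusted p = 0.0475, limma), a call kept without WT library 3 or WT library 4 but lost in the 10 other cases of an omitted library (adjusted p of up to 0.141). Itgb4, the integrin cargo of Arrdc3, rose 8.09-fold in immortalized MlxKO cells, where Vps4b (-0.46) and Tsg101 (-0.35), of the sorting machinery that ARRDC1 recruits, fell. These 3 of 9 compare with 38.9% of all genes, and the number was 5 without WT library 4 (background 46.8%) and 1 with scaling by library totals. Without that library the log2 fold changes were 2.24 for Itgb4 (adjusted p = 1.45e-05, limma), -0.55 for Vps4b and -0.39 for Tsg101. These are on the log2(CPM + 1) scale, which understates changes of low genes, and the 2.24 is a log2 value rather than a fold. Of the beta-arrestins, Arrb2 rose in immortalized MlxKO cells (0.68, or 0.76 without WT library 4) and Arrb1 in immortalized DKO against MycKO cells (2.27), and in primary cells 0 were called in either comparison with limma, edgeR or DESeq2, with 0 at an unadjusted p below 0.05. Without WT library 3, both beta-arrestins were called in immortalized MlxKO cells, 2 in number.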

How the data were processed

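RNA of 24 libraries was poly-A selected and sequenced from directional libraries by the authors, whose reads were mapped in CLC Genomics Workbench 22 against GRCm39 and counted per gene. Whether counting used strand is not given in the sources used here. The deposited signal is a CPM to which the authors applied a further, unnamed scaling (library sums of 915691 to 1077213). Each of 395855 nonzero values was a whole number of reads (tolerance 0.01), which gave the depth. All columns were used, and each was assigned to its group by name.

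From the deposited signal, log2(CPM + 1) was fitted with limma 3.58.1 (R 4.3.3; mean trend; 4 groups in 1 fit per table; 2-sided) for genes that reached 1 CPM in 3 or more of 12 libraries. Fold changes are on that scale, which understates the change of low genes. An exact permutation test of 3 against 3 libraries cannot go below p = 0.1 and was not used. Alternatives were a pseudocount of 0.1, no filter, a mean of at least 5 CPM, median-ratio scaling, scaling by library totals, fits of only the groups compared, a robust prior, edgeR 4.0.16 and DESeq2 1.42.0 on recovered reads, their intersection with limma, and omission of each library in turn. The scripts were tested on simulated data.

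Members and lists were chosen with earlier results of these data known. Named from each list were at most 3 rises and 3 falls among genes called in MlxKO against WT or DKO against MycKO, and for Mlx, Txnip, Arrdc3 and Arrdc4 the 3 genes most like them. The lists were Mlx dimer partners, glucose-responsive targets, thioredoxin partners, NEDD4-family ligases, alpha-arrestin cargo and vesicle partners, beta-arrestins and markers of 8 cell types. Summed endothelial, epithelial, adipocyte and hepatocyte markers did not exceed 20.6 CPM in any library, and neural markers lay between 60.3 and 109 CPM in primary libraries. Places are those of GENCODE vM39, which held 41181 of the 41710 genes. Figures were drawn with matplotlib 3.10.9 (Python 3.11.15). Of the cargo list, 1 gene is not reported here. Other assays of the study were not analysed here.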

Additional observations from a re-analysis of the deposited data

Results flagged for a closer look

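The effect of losing Mlx differed between cells with and without Myc for 3 of the 7 genes tested in each table, as tested by the interaction (limma). Over all genes tested, the interaction was called for 13.5% in primary and 47.4% in immortalized cells, so the number in immortalized cells is near the background. In primary cells the differences were 1.66 for Txnip, 0.90 for Arrdc4 and 0.75 for Arrdc3 on the log2 scale. In immortalized cells they were 1.80 for Arrdc3, 1.39 for Arrdc4 and -0.63 for Arrdc1, the last of which was lost without MlxKO library 6 (-0.56, adjusted p = 0.0590, limma), MlxKO library 7 (-0.61, adjusted p = 0.0501) or MycKO library 11 (-0.59, adjusted p = 0.0512). Immortalized Txnip was not called by limma (-0.71, adjusted p = 0.143). It was called by edgeR (-1.21, adjusted p = 0.0460) and DESeq2 (-1.21, adjusted p = 0.0190).

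For 2 genes, the libraries of primary and of immortalized cells moved in opposite directions without overlap in the same comparison. Absence of overlap was common over all genes. In DKO against MlxKO it held for 60.9% of genes in primary and 54.4% in immortalized cells, and in DKO against WT for 60.8% and 37.1%. The share of all genes with opposite directions was not determined. For Txnip, DKO against MlxKO gave 1.85 in primary and -1.15 in immortalized cells. For Mlxip the same comparison gave 0.26 and -0.29, and DKO against WT gave 0.13 and -0.36. The difference between the tables was not tested, since they were normalized separately, and of the Mlxip values only the 0.26 was past the threshold.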

How the results depend on the processing

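No paired analysis was possible because no label says which column holds which numbered replicate. Of 808 member fold changes under the alternatives other than omission of a library, 784 kept their direction and side of the threshold, 11 lost and 13 gained a call, and 0 reversed. With a library omitted, the numbers were 974 of 1008, 21, 13 and 0. Numbers of members called stayed within 1.5 times the value given in 108 of 118 and 132 of 144 cases. In MycKO against WT of primary cells, 1 became 0 with a pseudocount of 0.1 or no filter, 2 with DESeq2 and 0 to 2 with a library omitted. In MycKO against WT of immortalized cells, 2 became 1 with a pseudocount of 0.1, no filter, a mean of 5 CPM, only the groups compared, edgeR or the intersection, and 1 to 3 with a library omitted. In immortalized DKO against WT cells, 2 became 1 with a mean of 5 CPM, which Arrdc4 did not reach, and 2 to 4 with a library omitted. In immortalized DKO against MlxKO cells the range was 1 to 4. Otherwise the cause was not tested.

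Scaling by library totals moved the median of all genes to -0.12 in primary DKO against MlxKO cells and, in immortalized cells, to 0.16 in MlxKO against WT, -0.16 in DKO against MlxKO and -0.18 in the interaction. The share of calls that were higher then changed from 47.3% to 32.4%, 49.0% to 69.9%, 54.0% to 29.2% and 49.9% to 37.2%. It also changed from 48.5% to 37.2% in DKO against WT, 48.3% to 31.4% in MycKO against WT and 42.2% to 53.8% in MlxKO against WT of primary cells. Under it, Arrdc3 in immortalized DKO against MlxKO cells was 0.46 (adjusted p = 0.0674, limma) and Mlxip in primary cells 0.15 (adjusted p = 0.125). For the lists, 12 of 240 numbers called moved past 1.5 times, and 41 of 288 with a library omitted. At this depth no difference in Mlxipl was detectable, and immortalized Arrdc4 without Mlx rested on 1 to 20 reads per library.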
